A study of Glycine max with 12 samples.

Results

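The 7 soybean genes described here act in the day-length pathway: 4 CONSTANS-like genes with a CCT domain and 3 phytochrome A genes, taken by name and ID from 56044 gene IDs counted. The CONSTANS-like genes are COL1a (Glyma.08G255200, chromosome 8), COL1b (Glyma.18G278100, chromosome 18), COL2a (Glyma.13G050300, chromosome 13) and COL2b (Glyma.19G039000, chromosome 19). The phytochrome A genes are PHYA1 (Glyma.10G141400, chromosome 10), PHYA2, the maturity gene E4 (Glyma.20G090000, chromosome 20), and PHYA3, the maturity gene E3 (Glyma.19G224200, chromosome 19). Chromosomes are read from the IDs, and no start or end is given because the build behind the counts is not given in the sources used here.

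Phytochrome A is a red and far-red light receptor, and in soybean the E3 and E4 genes delay flowering under long days. CONSTANS-like proteins carry B-box zinc fingers and a CCT domain, a plant DNA-binding and protein-contact domain. In Arabidopsis CONSTANS joins the circadian clock to the florigen gene FT, and it is known for transcript and protein levels that follow the time of day. The edited gene of the study belongs to the wider CCT family.

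RNA-seq libraries came from field-grown soybean, with seed given as the tissue of all 12 libraries and material collected from 3 to 5 plants. The genotypes were wild-type Thorne, a cultivar, a Gm20 single mutant edited at a seed protein locus on chromosome 20, and a Gm20/Gm10 double mutant edited also in its paralog on chromosome 10. Each genotype had 2 libraries labelled R5, the growers' name for the start of seed filling, and 2 labelled V5, a vegetative stage, so there were 6 groups. The study calls its edited soybeans transgenic, and the labels give neither a promoter nor a number of independent lines for either mutant.

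The libraries held 26966329 to 34626177 counts at R5 and 20410270 to 21066989 at V5. The tissue label was read against 2 marker lists whose IDs come from background knowledge. The 10 seed storage and seed lipoxygenase markers summed to 0.173 to 0.484 CPM (counts scaled to a common library total) in the R5 libraries and to 12764 to 298431 CPM in the V5 libraries, where the Gm20 mutant replicate 2 was the lowest. The 7 green-leaf markers (Rubisco small subunit, Rubisco activase and vegetative storage protein) summed to 20801 to 38572 CPM at R5 and to 157 to 551 CPM at V5. The R5 libraries go against the seed label, and the V5 libraries, named for a vegetative stage, are the ones rich in seed storage transcripts. A swap of the stage labels is possible and was not tested, and it would turn the sense of every R5 over V5 value as a stage difference. R5 and V5 are therefore used only as names of library groups. Comparisons between them set apart 2 kinds of material, and the stage, the tissue and the sampling cannot be told apart. In bulk RNA, fewer cells of a type and less RNA per cell cannot be told apart either.

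Certain libraries stood apart over all genes. The Gm20/Gm10 mutant replicate 1 and the Gm20 mutant replicate 2 were the closest pair at R5, with a median absolute log2 difference of 0.12 against 0.183 to 0.626 in the other 14 pairs. The Gm20 mutant replicate 2 at V5 differed from the other V5 libraries by 1.14 to 1.21, against 0.181 to 0.328 among the rest. For the member tests, the main results that rest on these 3 libraries are given with and without them. The nearest genes and the other day-length and clock IDs are given with all 12 libraries only.

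**Figure D1:**
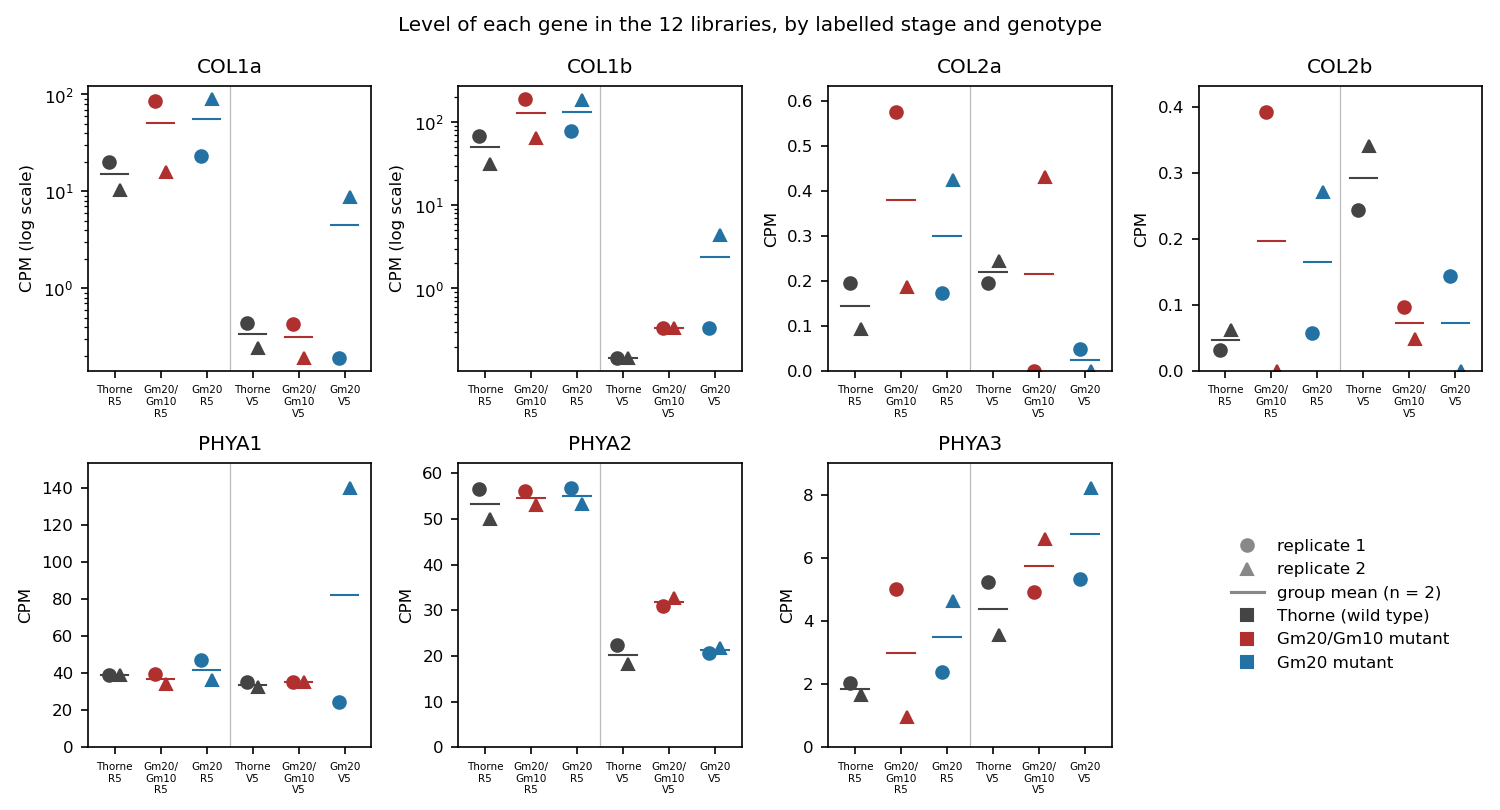
Level of each of the 7 genes in CPM (y axis, logarithmic for COL1a and COL1b) in the 12 libraries, by genotype and labelled stage (x axis); circles are replicate 1, triangles replicate 2 and short lines group means of 2 libraries. COL1a and COL1b are high in R5 libraries and near 0 in V5 libraries apart from the Gm20 mutant replicate 2, PHYA2 is higher in all R5 libraries, and PHYA1 stands out at 140 CPM in a single V5 library.

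COL1a, a CONSTANS homologue, was measured at R5 at 20.1 and 10.4 CPM in Thorne, 85.3 and 15.7 CPM in the Gm20/Gm10 mutant and 23.0 and 89.9 CPM in the Gm20 mutant (replicates 1 and 2). At V5 the corresponding levels were 0.441 and 0.244 CPM, 0.434 and 0.192 CPM, and 0.192 and 8.83 CPM. All 6 R5 libraries were above all 6 V5 libraries, and the highest R5 libraries were 1 of each mutant. The Gm20 mutant replicate 2 was far above the next highest V5 library, which had 0.441 CPM.

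COL1b, its paralog, was measured at R5 at 68.1 and 31.1 CPM in Thorne, 189 and 64.9 CPM in the Gm20/Gm10 mutant and 78.5 and 186 CPM in the Gm20 mutant. At V5 it had 0.147 and 0.146 CPM, 0.338 and 0.335 CPM, and 0.337 and 4.41 CPM. The order of libraries resembled that of COL1a, with the same pair on top at R5 and the same Gm20 mutant library on top at V5. The low V5 levels rest on 3 to 93 counts per library for COL1b and 4 to 186 for COL1a.

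COL2a and COL2b, a further CONSTANS-like pair, were near the limit of detection throughout. COL2a had 6 and 3 counts in Thorne, 19 and 5 in the Gm20/Gm10 mutant and 6 and 14 in the Gm20 mutant at R5, and 4 and 5, 0 and 9, and 1 and 0 counts at V5. COL2b had 1 and 2, 13 and 0, and 2 and 9 counts at R5, and 5 and 7, 2 and 1, and 3 and 0 counts at V5. The highest R5 counts of both genes were in the Gm20/Gm10 mutant replicate 1 and the Gm20 mutant replicate 2. With the limit set at 3 counts, a count of 0 allows up to 0.111 CPM in the R5 Gm20/Gm10 mutant replicate 2 and up to 0.142 CPM in the V5 Gm20 mutant replicate 2, for counting error only.

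PHYA1 was measured at R5 at 38.9 and 39.2 CPM in Thorne, 39.6 and 34.3 CPM in the Gm20/Gm10 mutant and 47.4 and 36.2 CPM in the Gm20 mutant. At V5 it had 35.2 and 32.5 CPM, 35.2 and 35.4 CPM, and 24.8 and 140 CPM. The 11 libraries other than the Gm20 mutant V5 replicate 2 lay between 24.8 and 47.4 CPM, and that replicate was 3.95 times the next highest V5 library. In CPM the same library was above the other 5 V5 libraries for 4 of the 7 members, and for 2 of the 3 tested at V5, against 54.4% of all genes tested. CPM is not corrected for composition. Seed markers made up 1.28% of the counts of that library and 18.6% to 29.8% in the other V5 libraries. Its TMM factor was 1.127, against 0.662 to 0.884 in them, so its CPM ratios, 3.95 included, exceed those on the TMM scale. PHYA3 had 8.21 CPM in that library and 6.61 CPM in the Gm20/Gm10 mutant V5 replicate 2, with factors of 1.127 and 0.884. Divided by these factors, PHYA3 is no longer highest in the Gm20 mutant replicate 2. For the other members the part of composition in these ranks was not tested.

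PHYA2 was measured at R5 at 56.6 and 49.9 CPM in Thorne, 56.0 and 53.0 CPM in the Gm20/Gm10 mutant and 56.7 and 53.3 CPM in the Gm20 mutant. At V5 the levels were 22.3 and 18.3 CPM, 31.0 and 32.7 CPM, and 20.7 and 21.8 CPM. Every R5 library was above every V5 library. The R5 levels spanned 1.14 times from lowest to highest, the smallest span of the 7 genes at that stage. At V5 both Gm20/Gm10 mutant libraries were above the other 4.

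PHYA3 was low, at 2.04 and 1.65 CPM in Thorne, 5.02 and 0.964 CPM in the Gm20/Gm10 mutant and 2.40 and 4.63 CPM in the Gm20 mutant at R5. At V5 it had 5.24 and 3.56 CPM, 4.92 and 6.61 CPM, and 5.34 and 8.21 CPM. The 2 stages overlapped through the same R5 pair that was highest for the COL1 genes.

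The stages were compared within each genotype with edgeR's quasi-likelihood test, fitted on all 12 libraries with Benjamini-Hochberg adjustment over 38559 genes, and an adjusted p under 0.05 was called. COL1b was higher at R5 in all 3 genotypes by edgeR, and limma did not call it in the Gm20 mutant (adjusted p = 0.220). The log2 fold change was 7.57 (SE 1.29, adjusted p = 0.00289) in Thorne, 8.21 (SE 1.25, adjusted p = 0.0018) in the Gm20/Gm10 mutant and 5.71 (SE 1.07, adjusted p = 0.00413) in the Gm20 mutant. COL1a was higher by 4.68 (SE 1.57, adjusted p = 0.0445) in Thorne and by 6.99 (SE 1.68, adjusted p = 0.0125) in the Gm20/Gm10 mutant. In the Gm20 mutant it was 3.61 (SE 1.35), with an edgeR adjusted p of 0.0587. PHYA2 was higher at R5 in the Gm20 mutant, by 1.05 (SE 0.21, edgeR adjusted p = 0.00525), and had 0.59 (SE 0.21, adjusted p = 0.0511) in Thorne and 0.41 (SE 0.21, adjusted p = 0.152) in the Gm20/Gm10 mutant. PHYA3 had negative values of -2.04, -1.27 and -1.18 in Thorne, the Gm20/Gm10 and the Gm20 mutant, with edgeR adjusted p of 0.0505, 0.179 and 0.192. PHYA1 did not pass by edgeR in any genotype, with log2 fold changes of -0.60, -0.30 and -1.14, nor did COL2a, with -1.39, 0.49 and 3.14. DESeq2 also called COL1a in the Gm20 mutant (adjusted p = 0.00914) and PHYA2 and PHYA3 in Thorne (0.0379 and 0.0135). By limma PHYA1, PHYA2 and PHYA3 were called in Thorne (adjusted p = 0.00816, 0.00149 and 0.00298), and PHYA2 and PHYA3 in the Gm20/Gm10 mutant (0.0433 and 0.0338). In the Gm20 mutant limma did not call PHYA2 (adjusted p = 0.0894).

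In each genotype 2 of the 6 members tested were called by edgeR. Of all genes tested, 37.8% were called in Thorne (20.9% higher), 37.4% in the Gm20/Gm10 mutant (21.1% higher) and 41.9% in the Gm20 mutant (21.6% higher). DESeq2 called 4, 2 and 3 members in the same order, and 45.3%, 44.6% and 49.1% of all genes. In CPM, 3 of the 6 members (COL1a, COL1b and PHYA2) had all R5 libraries above all V5 libraries, as did 32.9% of all genes tested. COL1a and COL1b failed the filter on low counts in the V5 libraries alone and entered the 12-library fit through R5, where they are high, so nothing is read from these counts of members. COL2b failed the filter in the 12-library fit and was not tested.

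The Gm20 mutant V5 replicate 2 touched the stage results of its own genotype and the shared spread. Without it that group has 1 library, whose spread is assumed to be that of the other groups. The COL1a value in the Gm20 mutant was then 7.70 (SE 1.87), the COL1b value 8.12 (SE 1.31) and the PHYA2 value 0.87 (SE 0.18). PHYA1 moved from -1.14 to 0.20 in that mutant. In Thorne 5 of 7 members tested were then called, against 54.9% of all genes, with PHYA1 at -0.60, PHYA2 at 0.60 and PHYA3 at -2.04 (edgeR adjusted p = 0.00926, 0.00839 and 0.0414). Scaling by library totals alone moved the median of all genes in Thorne from 0.141 to 0.942 and the PHYA1 value from -0.60 to 0.21. Relative to that median PHYA1 was at -0.74 with TMM and at -0.73 with library totals alone. The COL1a call in Thorne did not survive the replicate number as a block (edgeR adjusted p = 0.0647), and was called in 6 of 12 fits with a library left out. The call was lost without either Thorne library of R5 or V5 (edgeR adjusted p = 0.0791 to 0.195) and without either Gm20/Gm10 mutant library of V5 (0.0663). In the Gm20/Gm10 mutant the COL1a call was lost without its R5 replicate 1 (edgeR adjusted p = 0.0543) and without either of its V5 libraries (0.0786 and 0.0956). Without the closest R5 pair the COL1a value was 4.61 in Thorne, 5.13 in the Gm20/Gm10 mutant and 2.15 in the Gm20 mutant. In the same order COL1b had 7.50, 7.07 and 4.80, and PHYA2 had 0.52, 0.23 and 0.98. PHYA3 then had -2.11, -3.07 and -1.89 in the same order. That pair holds the 2 highest R5 levels of PHYA3, 5.02 and 4.63 CPM, so leaving it out removes the overlap of the stages. Each mutant then has 1 R5 library, and this fit was added after seeing the data. No call of any member, made or lost, is therefore read from it.

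**Figure D2:**
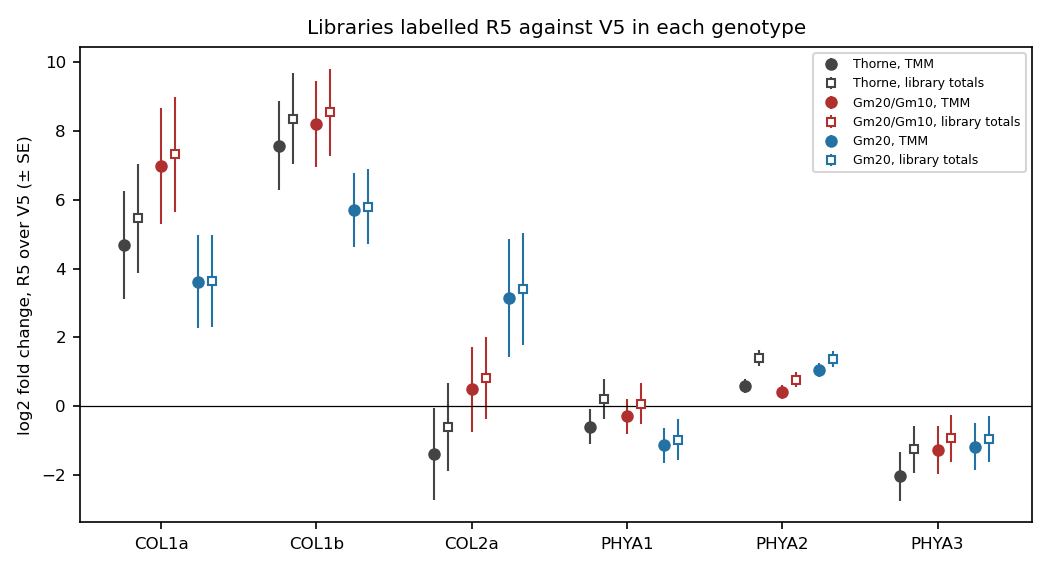
log2 fold change of R5 over V5 libraries (y axis, ± SE) for the 6 genes tested (x axis) in Thorne, the Gm20/Gm10 and the Gm20 mutant; filled circles use TMM and open squares library totals alone. COL1a and COL1b lie above 0 in all genotypes, and COL1a in the Gm20 mutant, at 3.61 (SE 1.35), was not called by edgeR. Library totals alone move the values upward together with the median of all genes, in Thorne from 0.141 to 0.942.

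The genotypes were compared within each stage on its 6 libraries, and edgeR called 0 genes of 37058 at R5 and 0 of 33599 at V5 in every pairing, so 0% of genes and 0 members were called. At an unadjusted p under 0.05 edgeR had 1089 genes for the Gm20/Gm10 mutant against Thorne, 2035 for the Gm20 mutant against Thorne and 99 between the mutants at R5, and 517, 2022 and 1351 at V5. DESeq2 called 58, 73 and 0 genes at R5 (0.157%, 0.197% and 0% of those tested) and 11, 167 and 113 at V5 (0.0327%, 0.497% and 0.336%), with 0 members among them.

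At R5 the COL1a log2 fold change against Thorne was 1.88 (SE 1.04) in the Gm20/Gm10 mutant and 2.01 (SE 1.04) in the Gm20 mutant, and that of COL1b was 1.50 (SE 0.76) and 1.52 (SE 0.77). The edgeR adjusted p was 0.779 in the Gm20/Gm10 mutant and 0.585 in the Gm20 mutant for both genes. Without the closest R5 pair, COL1a had 0.091 and 0.56 and COL1b 0.43 and 0.63, each mutant then having 1 library whose spread is assumed to be that of Thorne. PHYA3 had 0.85 (SE 0.83) in the Gm20/Gm10 mutant and 1.02 (SE 0.83) in the Gm20 mutant, and -0.89 and 0.34 without that pair. COL2a had 1.53 (SE 0.94) and 1.12 (SE 0.95), and fell under the filter without the pair. PHYA1 and PHYA2 lay between 0.038 and 0.15 in both mutants, with SE of 0.18, and between -0.14 and 0.25 without the pair. Between the mutants the 6 members ranged from -0.17 (PHYA3) to 0.41 (COL2a), and without the pair the 5 still tested ranged from -1.23 (PHYA3) to -0.016 (PHYA2).

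At V5 only the phytochrome A genes passed the filter on low counts. PHYA2 was higher in the Gm20/Gm10 than in the Gm20 mutant by 0.68 on the log2 scale (SE 0.23), with an edgeR unadjusted p of 0.0300 and adjusted p of 0.669. An unadjusted p under 0.05 was reached by 4.02% of all genes in that pairing. Against Thorne it had 0.34 (SE 0.23) in the Gm20/Gm10 mutant and -0.34 (SE 0.23) in the Gm20 mutant. Without the Gm20 mutant replicate 2 the difference between the mutants was 0.50 and the Gm20 mutant value -0.16. Both Gm20/Gm10 mutant libraries exceeded both Thorne libraries in CPM, as did 60.1% of all genes tested at V5, and exceeded both Gm20 mutant libraries, as did 21.5%. PHYA3 had 0.090 and 0.18 (SE 0.29 each) in the Gm20/Gm10 and the Gm20 mutant, and PHYA1 in the Gm20/Gm10 mutant had -0.25 (SE 0.64). PHYA1 in the Gm20 mutant was 0.70 (SE 0.65) against Thorne and -0.64 without replicate 2. When replicate 1 was left out instead, edgeR called COL1a, COL1b, PHYA1 and PHYA2 in the Gm20 mutant against Thorne, together with 60% of all genes tested, so those calls rest on the library that stands apart. The change of the mutant difference from V5 to R5 was called for 0 members and 0 genes (0%) by edgeR in either mutant, with COL1a at 2.31 (SE 2.23) in the Gm20/Gm10 mutant and -1.06 (SE 1.96) in the Gm20 mutant. Without the closest R5 pair these were 0.52 and -2.46, and without the Gm20 mutant V5 replicate 2 the value in that mutant was 3.03.

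**Figure D3:**
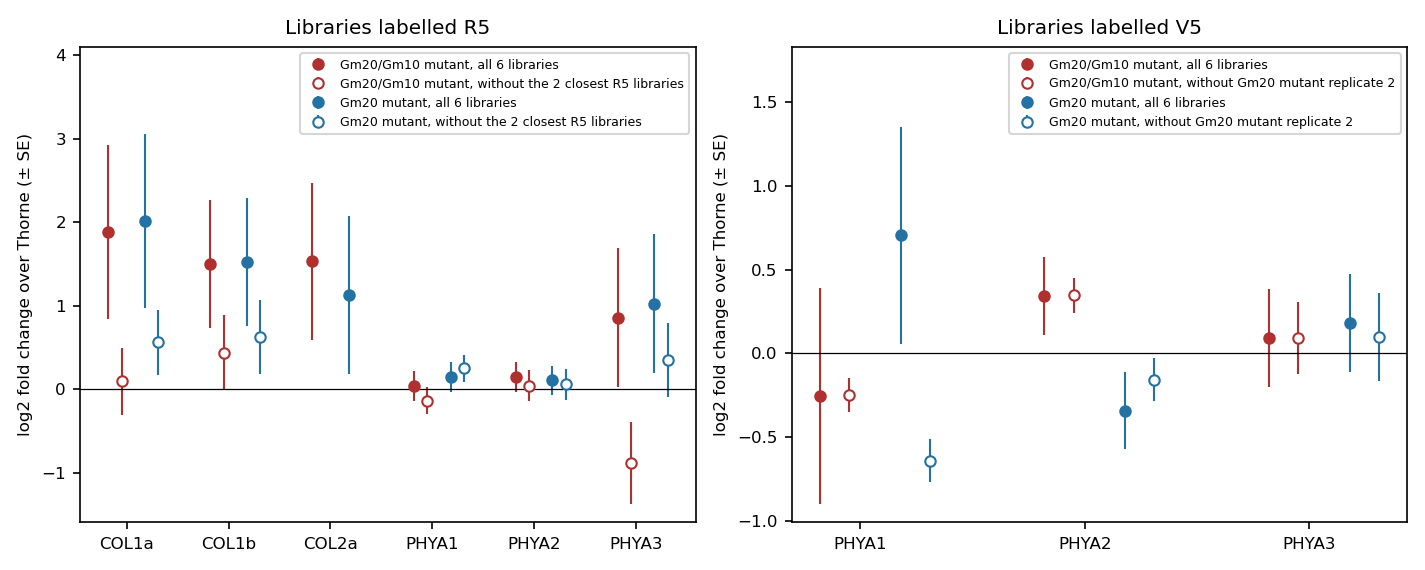
log2 fold change over Thorne (y axis, ± SE) for members tested at R5 (left) and V5 (right) in the Gm20/Gm10 and the Gm20 mutant; open circles leave out the 2 closest R5 libraries or the Gm20 mutant V5 replicate 2. The COL1 differences at R5 move toward 0 without the pair, and PHYA1 in the Gm20 mutant at V5 changes sign.

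The level of the COL1 genes within R5 followed the libraries that are closest to each other. Both were above the other 4 R5 libraries for COL1a, COL1b, COL2a, COL2b and PHYA3, and for 4 of the 6 members tested, against 18.7% of all genes tested (42.1% were below). COL2a passed the filter at R5 with that pair and not without it. The lower of the pair was 3.71 times the highest of the other 4 for COL1a, 2.37 times for COL1b and 1.93 times for PHYA3. In CPM, PHYA1 and PHYA2 did not separate the pair from the other 4. CPM is not corrected for composition, and the TMM factors were 1.089 and 1.087 in the pair, against 1.184 to 1.284 in the other 4. Divided by these factors, PHYA2 is higher in both libraries of the pair than in the other 4, and PHYA1 is not. Among the 7 green-leaf markers, 5 were also highest in the pair in CPM, and the other 2 were the lowest. The marker ID listed as a Rubisco small subunit, Glyma.13G046200, had 6193 and 6043 CPM in the pair and 962 to 1849 CPM in the rest, and the ID listed as a vegetative storage protein, Glyma.08G200100, had 392 and 343 CPM against 2063 to 3640 CPM. The part of these differences in the COL1 values was not tested.

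**Figure D4:**
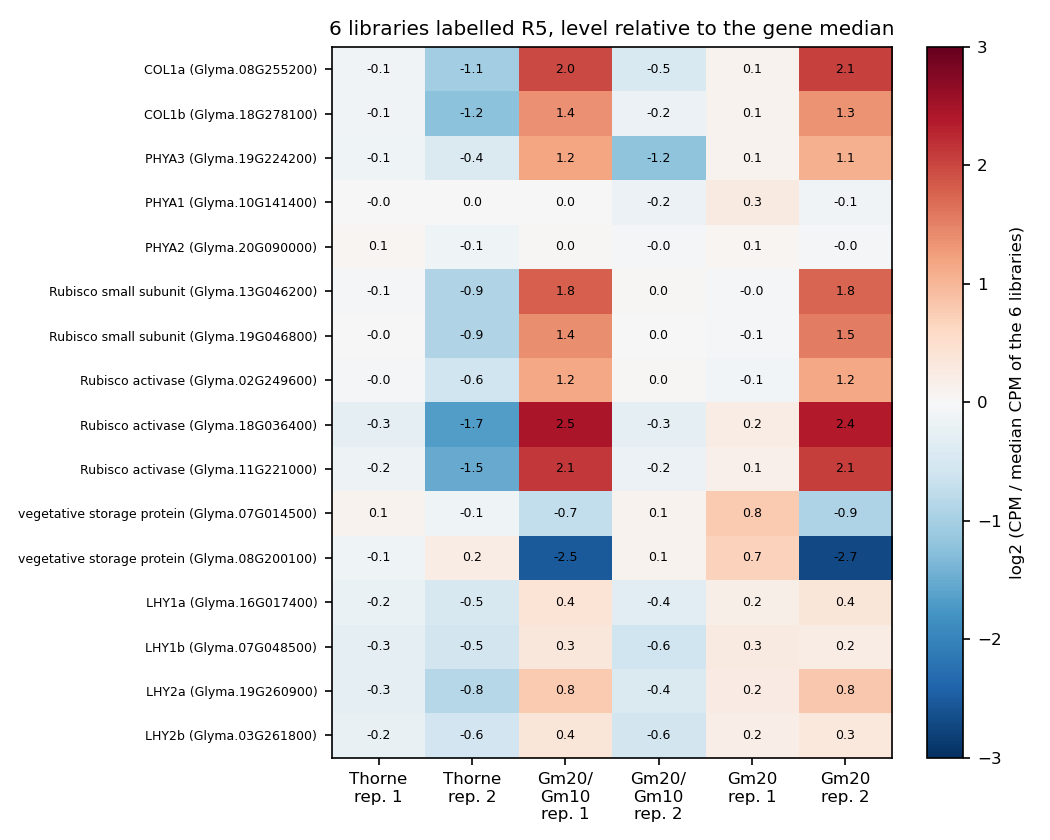
log2 ratio of the level to the median over the 6 R5 libraries (colour and printed values) for 5 members, the 7 leaf markers and 4 LHY clock genes (rows), by library (columns); marker names come from background knowledge. COL1a, COL1b, PHYA3 and the Rubisco rows are highest in the Gm20/Gm10 mutant replicate 1 and the Gm20 mutant replicate 2. In CPM, PHYA1 and PHYA2 stay near 0.

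Within the COL1 pair and the PHYA1 and PHYA2 pair, the measured share of counts from COL1a and from PHYA1 was higher in every V5 library than in every R5 library. For COL1a this order rests on few V5 counts. COL1a made up 19.5% to 32.5% of the COL1a and COL1b counts at R5, where the closest pair had 31.1% and 32.5% and the rest 19.5% to 25.0%. At V5 the share was 36.4% to 75% on 8 to 279 counts. The Gm20/Gm10 mutant replicate 2 and the Gm20 mutant replicate 1 had 36.4% on 11 counts each. Their 95% intervals of 10.9% to 69.2% cover the whole R5 range, so the COL1a order is not resolved there. PHYA1 made up 39.3% to 45.6% of the PHYA1 and PHYA2 counts at R5, 52.0% to 64.0% in 5 V5 libraries and 86.5% in the Gm20 mutant V5 replicate 2. Shares set counts side by side without correction for gene length, and reads shared by near-identical copies could have been split between them.

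**Figure D5:**
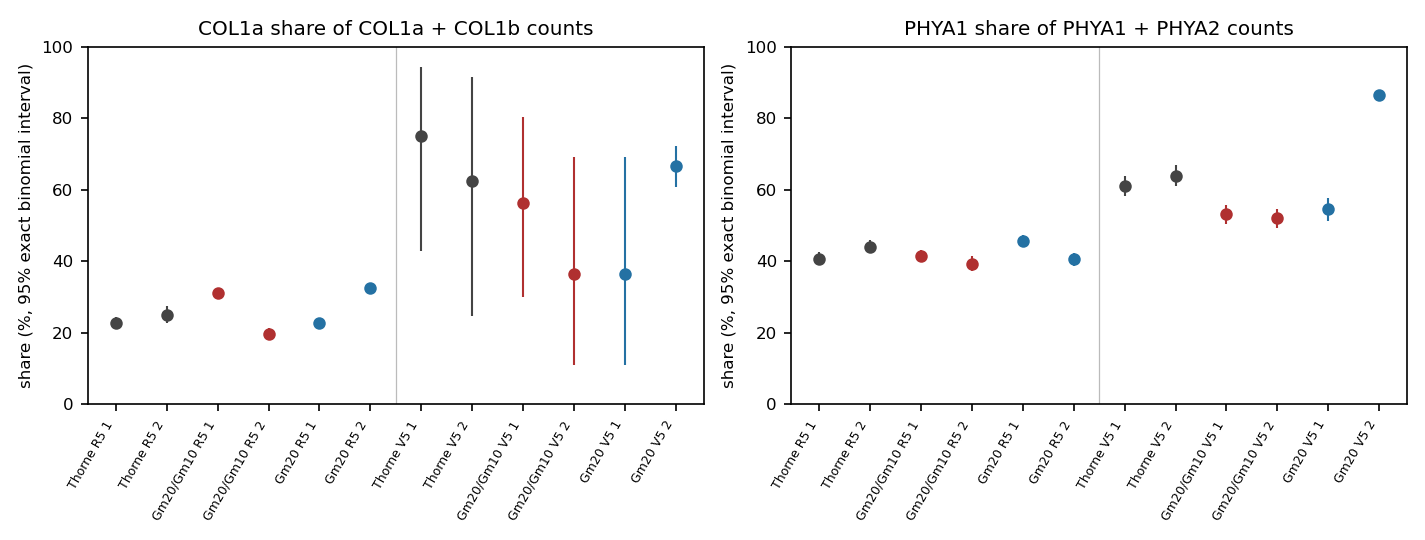
Share of counts (y axis, %, with 95% exact binomial intervals) from COL1a among COL1a and COL1b (left) and from PHYA1 among PHYA1 and PHYA2 (right), by library (x axis). The COL1a share at V5 has wide intervals because of few counts, and the PHYA1 share is higher in every V5 library than in every R5 library.

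PHYA2 and PHYA1 lie on the chromosomes of the edited genes. In the order of IDs, 48 other IDs stand between PHYA2 and the chromosome 20 gene of the edited locus, Glyma.20G085100, and 69 between PHYA1 and its chromosome 10 paralog, Glyma.10G134400. Both of these IDs come from background knowledge of the locus. Their counts were 0 to 4 and 0 to 6 at R5 and 10 to 31 and 19 to 67 at V5, the reverse of the stage order of COL1a, COL1b and PHYA2.

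The gene closest to each member in shape over the 12 libraries was taken by the root mean square difference of centred log2 CPM. It was Glyma.11G153400 for PHYA2 (0.0909), Glyma.06G062700 for PHYA1 (0.128), Glyma.05G015800 for PHYA3 (0.227), Glyma.12G129200 for COL1b (0.320), Glyma.13G257000 for COL1a (0.464) and Glyma.13G161200 for COL2a (0.478). With a prior count of 0.5 in place of 2, the nearest gene changed for COL1a, COL1b, COL2a and PHYA3. Among 38558 other genes, COL1b ranked 219 by likeness to COL1a and COL1a ranked 142 by likeness to COL1b, while PHYA1 ranked 21675 by likeness to PHYA2. These measures use all 12 libraries, the Gm20 mutant V5 replicate 2 among them. In that library Glyma.06G062700 was also high, at 95.5 CPM against 17.7 to 28.9 CPM in the rest.

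Of 32 other day-length and clock IDs listed from background knowledge, 18 passed the filter and the other 14 had at most 9 counts in any library, among them the IDs listed for the E1 repressor, the FT florigens, the AP1 floral genes and Dt1. Between stages, 2 were called higher and 3 lower at R5 in Thorne, 5 and 2 in the Gm20/Gm10 mutant and 3 and 3 in the Gm20 mutant. Their median log2 fold change was 0.022, 0.25 and 0.20. Of all genes tested, 37.8%, 37.4% and 41.9% were called in the same order, with a median of 0.141, 0.112 and -0.030. Nothing is read from these counts of listed IDs. The clock gene LHY1b (Glyma.07G048500) was higher at R5 by 2.57, 2.50 and 1.86 (edgeR adjusted p = 0.0127, 0.0139 and 0.0365). The red-light receptor gene PHYB1 (Glyma.09G035500) fell by 1.41, 1.63 and 1.91 (edgeR adjusted p = 0.00467, 0.00258 and 0.00134). In CPM the R5 and V5 libraries did not overlap for either gene, at 108 to 206 against 9.06 to 82.2 CPM for LHY1b and 42.4 to 72.8 against 81.7 to 224 CPM for PHYB1. The upper V5 ends are the Gm20 mutant replicate 2, and the next highest V5 libraries had 22.5 and 130 CPM. Of the 18, 4 had all R5 libraries above all V5 libraries, as did 32.9% of all genes tested. PHYB1 was the 1 with all R5 libraries below, and the share of all genes below is not given here. In the genotype comparisons 0 of the 18 were called. In CPM all 18 were highest in the Gm20 mutant replicate 2 among V5 libraries, as were 54.4% of all genes tested. CPM is not corrected for the low share of seed storage transcripts in that library. Not all 18 stay highest there when CPM is divided by the TMM factors. PHYB2 (Glyma.15G140000) had 87.5 CPM in that library and 66.7 CPM in the Gm20 mutant V5 replicate 1. The factors were 1.127 and 0.812, so PHYB2 is then lower in that library than in replicate 1. The other listed IDs were not tested on that scale. In the closest R5 pair, 7 of the 18 were highest in both libraries, as were 18.7%.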

How the data were processed

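The authors deposited whole-number read counts per gene ID for each of 12 libraries. The submitters' processing notes name the tools Bowtie, HISAT2 and HTSeq but no version. Build, annotation and strand setting: not given in the sources used here. The deposited counts were tested with edgeR 4.0.16 in R 4.3.3 (TMM, filterByExpr with minimum count 10 and minimum total 15, quasi-likelihood test, Benjamini-Hochberg adjustment, calls under 0.05). Genotypes were fitted within a stage and stages over all 12 libraries. SE is the log2 fold change over the square root of F. CPM is the deposited count scaled to a common library total. Alternatives were RLE scaling, DESeq2 1.42.0, limma 3.58.1, no filter, a replicate block, all 12 libraries in 1 fit and each library left out; library totals alone, the fits without the closest R5 pair, a DESeq2 fit without the Gm20 mutant V5 replicate 2 and a crossed block were added after seeing the data. The fitting code was tested on simulated data. Intervals cover counting error only. Nothing in the labels ties the 2 replicates of a group to separate plots or plants. The p-values therefore cover only spread among these libraries, and that spread may be technical.

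The members, lists and rules were chosen with earlier results of these data known. The named genes were all 7 members, the edited pair and the nearest gene to each member. From the list, LHY1b, PHYB1 and PHYB2 were chosen after their values were seen. Of the 56044 IDs, 0 matched the 59048 RefSeq genes, so names come from background knowledge. RefSeq lists the same name, as symbol or synonym, on the same chromosome for 4 of the 7 members; its symbol for COL1a is COL2A, which is not the COL2a described here. No sequences were used.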

Additional observations from a re-analysis of the deposited data

How the results depend on the processing

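Members called between stages in Thorne numbered 4 with DESeq2 (45.3% of all genes), 5 with limma (65.6%), 5 with DESeq2 without the Gm20 mutant V5 replicate 2 (55.6%) and 1 with the replicate block (33.1%), against 2 (37.8%); limma called 4 in the Gm20/Gm10 mutant (55.5%) and 0 in the Gm20 mutant (7.29%). With libraries left out in turn, members called were 1 to 5 in Thorne (17.3% to 54.9% of all genes), 1 to 3 in the Gm20/Gm10 mutant (16.3% to 54.5%), 0 to 4 for the Gm20 mutant against Thorne (0% to 60%) and for the Gm20/Gm10 against the Gm20 mutant at V5 (0% to 61.8%), and 0 to 1 for the change in the Gm20 mutant (0% to 24%). Libraries with the same replicate number did not go together: the correlation of deviations was -0.31 to 0.208 in all pairings but the mutants at R5. Between the mutants at R5 it was -0.683, so replicate 1 of each went with replicate 2 of the other, as in the closest pair. The crossed block between the mutants at R5 called 0 members.

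Library totals alone moved all genes together and turned the sign of 8 of 57 member values; relative to the median of all genes, 0 of the 57 changed sign and those 8 moved by at most 0.023. PHYA1 was then -0.079 (Gm20/Gm10 mutant, R5), 0.062 (Gm20/Gm10 mutant, V5), 0.21 and 0.066 (stages in Thorne and the Gm20/Gm10 mutant) and -0.14 (change, Gm20/Gm10 mutant), and PHYA2 was -0.013 (between mutants, R5), -0.024 (change, Gm20 mutant) and 0.074 (Gm20 mutant, V5). Directions also turned in the following cases, whose cause was not tested. Without the closest R5 pair the change of COL1b in the Gm20/Gm10 mutant was -0.43, PHYA1 -0.14 (Gm20/Gm10 mutant, R5), PHYA2 -0.016 (between mutants, R5) and PHYA3 -0.89 (Gm20/Gm10 mutant, R5) and -0.97 (its change). DESeq2 without the Gm20 mutant V5 replicate 2 gave 3.10 for COL1a, 0.59 for COL1b and 0.85 for PHYA1 (change, Gm20 mutant), and PHYA1 values of 0.39 (between mutants, V5), 0.19 (stages, Gm20 mutant) and -0.64 (Gm20 mutant, V5).

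With each library left out, the ranges between mutants at R5 were -1.92 to 1.34 for COL1a, -1.09 to 0.89 for COL1b, -0.72 to 1.32 for COL2a, -0.29 to 0.044 for PHYA1, -0.064 to 0.14 for PHYA2 and -1.91 to 0.59 for PHYA3. In the Gm20/Gm10 mutant at R5 they were -0.14 to 0.21 for PHYA1 and -0.89 to 1.63 for PHYA3. At V5, PHYA1 ranged from -1.59 to 0.39 between mutants and from -0.64 to 1.34 in the Gm20 mutant, and PHYA3 from -0.28 to 0.13 between mutants, -0.13 to 0.28 in the Gm20/Gm10 mutant and -0.0020 to 0.32 in the Gm20 mutant. Between stages, COL2a ranged from -0.49 to 6.32 in the Gm20/Gm10 mutant and PHYA1 from -1.79 to 0.20 in the Gm20 mutant. The changes ranged from -0.43 to 1.32 for COL1b and -0.96 to 1.53 for PHYA3 in the Gm20/Gm10 mutant, and from -2.53 to 3.03 for COL1a, -2.77 to 0.54 for COL1b and -1.20 to 0.80 for PHYA1 in the Gm20 mutant. COL1b was called between stages in all 12 fits of each genotype with a library left out, but not by limma in the Gm20 mutant (adjusted p = 0.220). COL1a in the Gm20/Gm10 mutant lost its call in 3 of 12 such fits. Depth limits COL2a and COL2b at both stages and the COL1 genes at V5.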
